A study of Mus musculus with 4 samples.

Results

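The heavy chain V segments (Ighv) were followed in splenocytes of 3-week-old DBA/1 mice. All transcript clusters of the array whose only gene symbol starts with Ighv were taken, with 1 cluster per symbol and the highest mean of the 4 arrays where a symbol had several. This gave 113 segments of 15 families among 30176 symbols. A segment was used for folds when its signal reached 100 in at least 2 arrays, which 95 of the 113 did and 18 did not. Ighv1-2, which RefSeq types as a pseudogene, stood at 999969, the top value of the deposited table, in every pool and therefore had no fold. Among all transcript clusters, 72 had an unchanged value over the 4 arrays, for a reason that is unknown. The remaining 94 segments belong to 12 families, and 90 of them reached 100 in all 4 arrays. The rule sets a floor of signal, so the 94 are not all heavy chain V segments, and RefSeq lists 183 entries of this name.

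RNA from splenocytes was pooled within sex and exposure and hybridised to 1 Clariom D mouse array per pool, an array that covers coding and non-coding transcripts. The BBP female pool held 6 animals and the BBP male pool 4 animals, all offspring of dams that drank water with 3 μg/ml benzyl butyl phthalate (BBP), a plasticiser, from before mating until weaning. The control female pool held 12 animals and the control male pool 4 animals, and their dams drank plain water. All animals were of the same strain and the offspring had not been immunised when the spleen cells were taken. Each pool is a single sample, and values below are given per pool as those of control females, BBP females, control males and BBP males. Which litters the animals came from is unknown, so exposure cannot be told apart from litter within a pair, nor sex from the number of animals pooled.

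Each B cell builds its heavy chain gene by joining 1 V, 1 D and 1 J segment, and the V segment encodes most of the variable domain that binds antigen. V segments are grouped into families by sequence similarity, which are not evenly spread along the locus: the large Ighv1 family (J558) fills the part far from the D segments, whereas Ighv2 (Q52) and Ighv5 lie next to them. In the spleen these transcripts come from B cells and, in larger amounts per cell, from plasma cells. In such bulk samples fewer cells of a type and less RNA per cell cannot be told apart.

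The array's probes follow the reference genome, which is of another strain, and similar segments can share hybridisation. Ighv1-71 and Ighv1-62-2, for example, had the same signal in every pool. A signal also depends on the probes of each cluster, so a share of the summed signal describes the measured distribution and is not a share of rearranged genes. The median signal over all 10614 genes that passed the same filter was 473.1 to 533.6 in the 4 pools, and the 23 background features had medians of 10.2 to 10.8. The lowest signal of the 94 segments was 68.6 to 110.3 per pool.

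The summed signal of the 94 segments was 2177534 in control females, 2741775 in BBP females, 1474735 in control males and 1968480 in BBP males. It was thus 1.26-fold higher with BBP in the female pair and 1.33-fold higher in the male pair. The BBP male pool lay below the control female pool, so the exposure groups overlapped. Without the 4 segments of highest mean signal the ratios were 1.17 and 1.23. The median segment had a signal of 5731 in control females, 6298 in BBP females, 3865 in control males and 4937 in BBP males.

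The signal was spread very unevenly over the segments, in a similar way in all pools. The highest segment held 14.9% to 18.6% of the summed signal, the 3 highest 31.0% to 36.9% and the 10 highest 59.9% to 61.6%. The effective number of segments, the exponential of the Shannon entropy of these shares, was 31.3 in the control female pool and 31.4 in the control male pool. It was 28.4 in the BBP female pool and 29.3 in the BBP male pool, so both BBP pools lay below both control pools. Log2 signals of the segments correlated between any pair of pools with Pearson's r of 0.992 to 0.996 across the 94 segments, which share probes and arrays and are not independent.

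**Figure D1:**
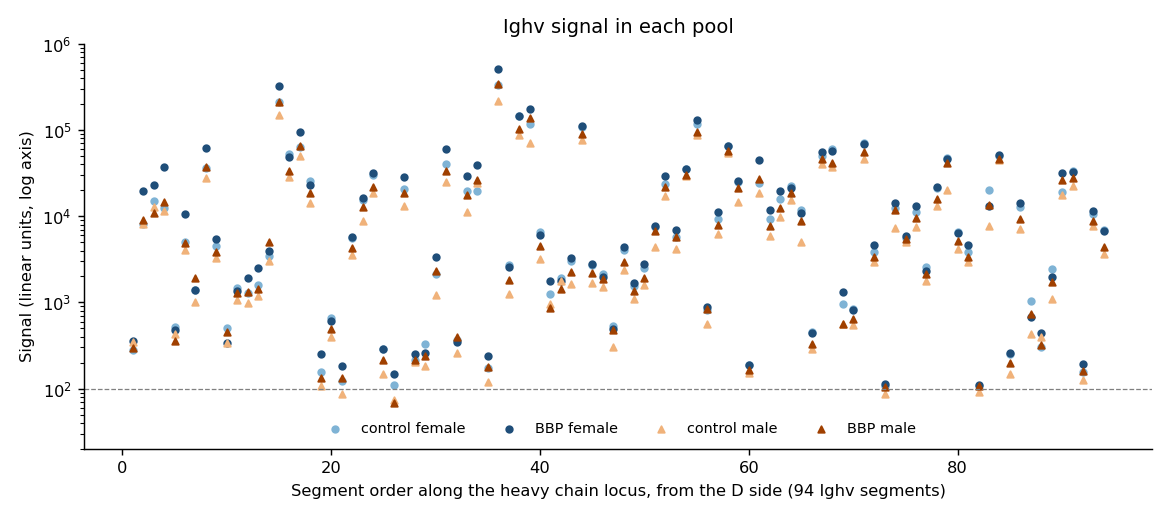
Signal of each Ighv segment with folds (vertical axis, log scale) by its order in the heavy chain locus from the D segments outwards (horizontal axis), with 1 point per pool. Signals range from under 100 to 511144 in Ighv10-1, and for 84 of 94 segments the male pool lies below the female pool in both exposure groups.

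Ighv10-1 had the highest signal of the segments with folds, at 337595 in control females, 511144 in BBP females, 220401 in control males and 347350 in BBP males. Ighv2-9 followed the same order, with 213042, 325442, 148297 and 214246. Ighv10-3 was measured at 119066, 174013, 70438 and 138594 in these pools. On the deposited scale both BBP pools lay above both control pools in each of these 3 segments. BBP males and control females differed little in Ighv10-1 and Ighv2-9. Scaling the arrays to the same median multiplies control females by 1.069 and BBP males by 0.934. The control female pool then lies above the BBP male pool in Ighv10-1 and Ighv2-9, so the groups overlap. How many of the segments with folds, or of all genes, separate by exposure on either scale was not counted. Here and elsewhere such separation is described on the deposited scale unless stated otherwise, and without a share of all genes to compare it with.

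The other segments among the 12 of highest mean were Ighv4-1, the only member of its family on the list, Ighv1-2 at the top value and 7 further segments of the Ighv1 family. Ighv1-5 was measured at 147698 in control females, 146243 in BBP females, 87272 in control males and 102229 in BBP males. Ighv1-34 and Ighv1-14 differed by at most 0.22 on the log2 scale within either pair. In Ighv1-42, Ighv1-56, Ighv1-62-1 and Ighv1-73 the log2 folds lay between -0.09 and 0.25. Ighv4-1 was at 64150, 93881, 49464 and 65542 in these pools, and both BBP pools lay above both control pools. Once the arrays were scaled to the same median, the groups overlapped in Ighv4-1. The abundant Ighv1 segments, by contrast, differed little between exposed and control pools.

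The family shares are of the summed signal of the segments with folds. They leave out Ighv1-2, which was at the top value in every pool, from both the Ighv1 family and the total. By family, Ighv1 held 46.0% of this sum in the control female pool and 47.5% in the control male pool, against 38.3% in the BBP female pool and 41.4% in the BBP male pool. The 2 measured Ighv10 segments held 21.0% and 19.7% in the control pools, and 25.0% and 24.7% in the BBP pools. For these 2 families the exposure groups did not overlap, and neither did they for Ighv2, Ighv11, Ighv12 and Ighv14. Ighv12 held 0.098% and 0.083% in the female and male control pools, and 0.124% and 0.117% in the BBP pools. Ighv14 was the lower one with BBP, at 4.11% and 3.45% in the control pools and 3.17% and 3.06% in the BBP pools. In the remaining families the groups overlapped. The Ighv2 family held 12.7% in control females, 16.7% in BBP females, 13.7% in control males and 14.4% in BBP males, so the BBP pools were the higher ones by a narrow margin in males. Shares add up to the whole, so a higher share of one family lowers that of the others. Ighv8 went from 5.36% to 4.74% in the female pair and from 4.05% to 5.29% in the male pair, and no other family held over 4.74% in any pool.

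**Figure D2:**
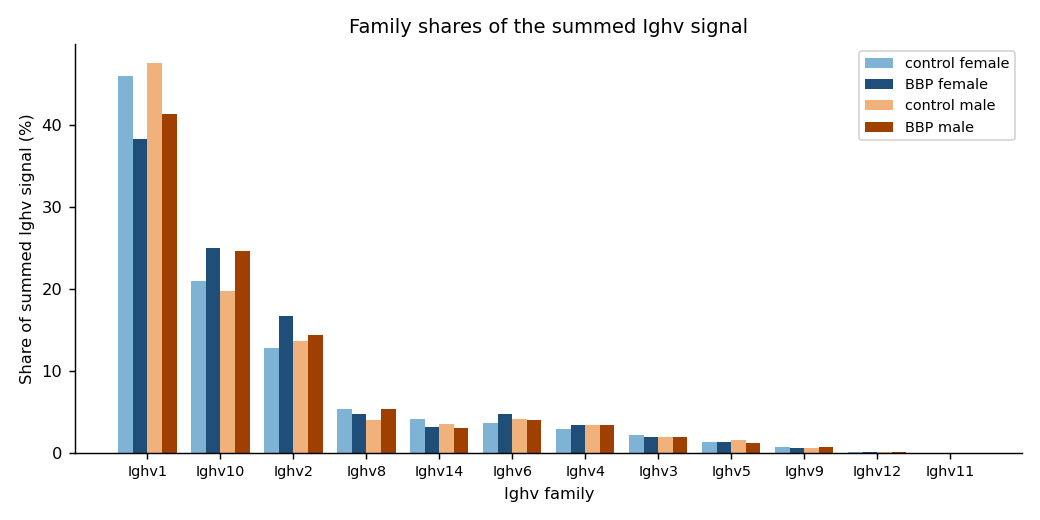
Share of the summed Ighv signal (vertical axis, percent) held by each family in the 4 pools. Ighv1 holds 46.0% and 47.5% in the control pools and 38.3% and 41.4% in the BBP pools, and Ighv10 holds 21.0% and 19.7% against 25.0% and 24.7%.

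To ask how maternal BBP exposure went with V segment signal, the log2 ratio of the BBP to the control pool was taken within each sex. Over the 94 segments the median was 0.10 for females (SD over segments 0.38) and 0.33 for males (SD 0.27), beside -0.10 and -0.15 over all genes. When the arrays were scaled to a common median over all transcript clusters, the female median was -0.01 and the male median 0.21, and the medians over all genes moved to -0.20 and -0.27. Scaled to a common median of the Ighv segments themselves, they were -0.03 and -0.02, near 0 by construction. In the female pair 63 segments were higher and 31 lower with BBP, and in the male pair 87 were higher and 7 lower.

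Of the 94 segments, 58 were higher with BBP in both pairs (19.9% of all genes were) and 2, Ighv1-11 and Ighv5-6, were lower in both (51.6% of all genes). With arrays scaled to the same median these counts were 37 and 6 (1171 and 7171 of the 10614 genes), and at a common Ighv median 23 and 30 (594 and 8012 of the genes). No segment was at least 2-fold higher in both pairs (1.22% of all genes) or at least 2-fold lower in both (0.546%). At 1.5-fold, 3 segments were higher in both pairs (2.49% of all genes), namely Ighv12-3, Ighv10-1 and Ighv1-82, and 0 were lower (4.45%). The count of segments higher in both pairs was therefore above the share of all genes, while 3 reached 1.5-fold in both. Within a single pair, 4 segments were at least 2-fold higher in females (172 of the 10614 genes) and 1 in males (246 genes). At 1.5-fold, 14 were higher in females (436 genes) and 19 in males (475 genes), and 2 were lower in females (1290 genes) and 0 in males (1418 genes).

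Across both pairs, limma with exposure and sex as terms called 0 segments higher (1.52% of all genes) and 0 lower (1.29%) at an adjusted p under 0.05. This fit has 1 residual degree of freedom. At an unadjusted p under 0.05, 19 segments or 20.2% were higher with BBP (5.91% of all genes) and 0 were lower. For other settings the share of all genes at such a p was not counted. The number of segments at such a p was 13 with arrays scaled to the same median, 6 at a common Ighv median and 1 without the sex term. With 1 pool left out, and no sex term, it was 14 without control females, 0 without BBP females, 1 without control males and 9 without BBP males. Of the 19, 2 belong to the Ighv1 family of 50 segments and 17 to the other families, which hold 44 segments. The smallest adjusted p was 0.0656, for Ighv12-3.

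The families differed in their folds. The 7 segments of Ighv2 had a median log2 ratio of 0.77 in the female pair, from 0.58 to 1.57, and of 0.37 in the male pair, from 0.17 to 0.53, and all 7 were higher in both pairs. The 50 segments of Ighv1 had medians of 0.05 and 0.28, of which the female one turned negative when arrays were scaled to the same median and both did so at a common Ighv median, and 31 of the 50 were higher in both pairs. The middle part of the Ighv1 segments, between the quartiles, spanned -0.05 to 0.22 for females and 0.18 to 0.40 for males.

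Ighv6 had medians of 0.59 and 0.50 over 4 segments, and Ighv10 of 0.57 and 0.82 over 2 segments. Ighv11 had medians of 0.64 and 0.47 over 2 segments. The single segments of Ighv4 and Ighv12 had log2 ratios of 0.55 and 0.67 in the female pair and of 0.41 and 0.91 in the male pair. For these 5 families and Ighv2, together 17 segments, all medians stayed above 0 in both pairs under the alternative scalings, filters and cluster choices tried, except that no Ighv11 segment was left at a floor of 200. At a common Ighv median, however, the male medians came down to 0.01 for Ighv2, 0.05 for Ighv4, 0.12 for Ighv11 and 0.15 for Ighv6, and were 0.46 for Ighv10 and 0.56 for Ighv12. Of the 17 segments, 16 were higher in both pairs and the exception was Ighv6-5, with -0.07 and 0.61. These families were put together after their values were seen.

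The other families had female medians near 0. Ighv5 had medians of 0.07 and 0.23 over 8 segments, of which 2 were higher in both pairs, and its female median turned negative when arrays were scaled to the same median or to a common Ighv median, or when no floor was set. Ighv3 had -0.02 and 0.38 over 5 segments, Ighv14 -0.04 and 0.26 over 4, and Ighv9 0.16 and 0.30 over 2. Ighv8 had medians of -0.00 and 0.64 over 8 segments, which ranged from -0.63 to 0.90 in the female pair and from 0.13 to 1.05 in the male pair. The female median was 0.03 for Ighv14 after quantile normalization and 0.14 for Ighv3 with no floor, and at a common Ighv median the male medians of Ighv5, Ighv9 and Ighv14 were below 0. Among the 27 segments of these 5 families, 11 were higher in both pairs, 1 was lower in both and 15 went opposite ways.

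**Figure D3:**
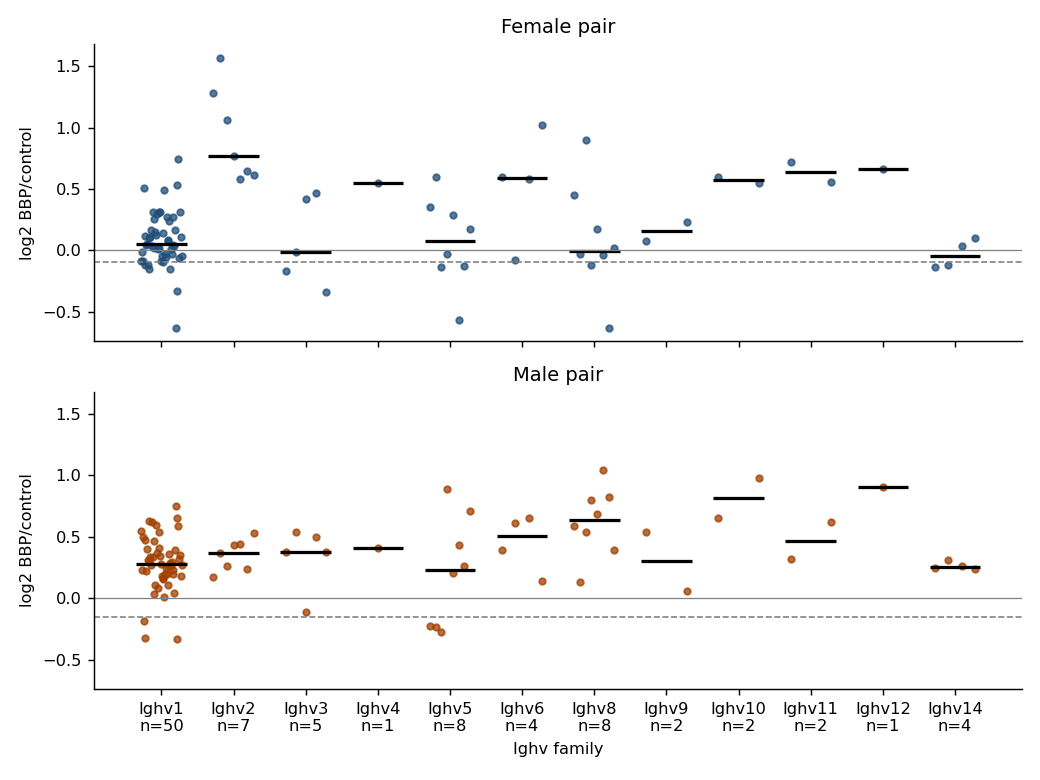
Log2 ratio of the BBP to the control pool (vertical axis) for each segment by family (horizontal axis), with the female and male pair shown apart and a bar at each family median. All 7 Ighv2 segments lie above 0 in both pairs, while the Ighv1 medians are 0.05 and 0.28, of which the female one drops below 0 when arrays are scaled to the same median and both do at a common Ighv median.

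Agreement between the pairs was limited. The sign was the same in 60 of the 94 segments, or 63.8%, and in 71.5% of all genes, and with arrays scaled to the same median in 43 segments, or 45.7%, and in 78.6% of all genes. Across the 94 segments the log2 ratios of the 2 pairs had a Pearson's r of -0.08 and a Spearman's rho of -0.02, while over all genes they had 0.57 and 0.53. Within Ighv1 the values were -0.30 and -0.11. The pairs share no pool, but segments on an array are not independent, and these are descriptions.

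**Figure D4:**
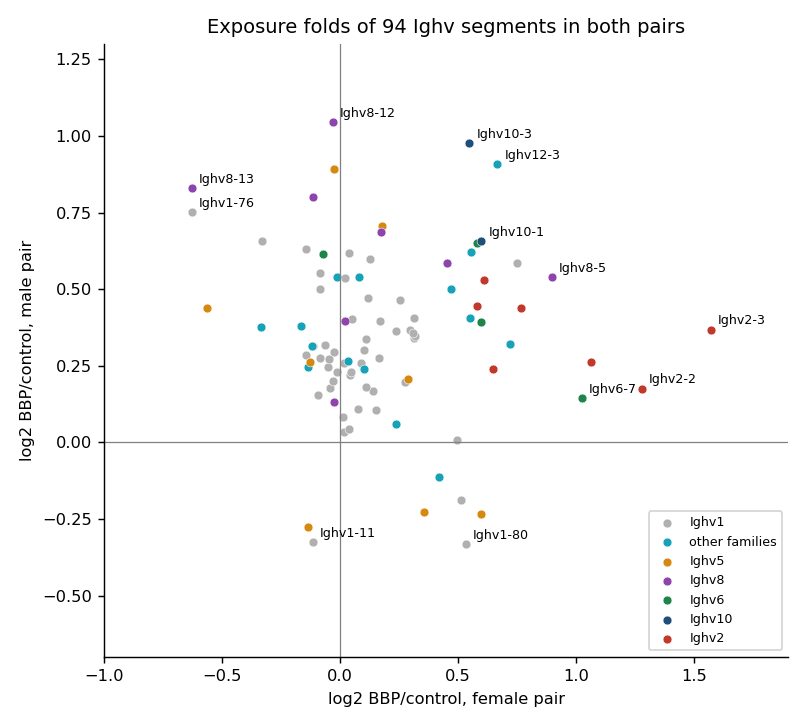
Log2 ratio of the BBP to the control pool in the female pair (horizontal axis) against the male pair (vertical axis), with 1 point per segment coloured by family group. On the deposited scale 58 of 94 points are above 0 on both axes (37 with arrays scaled to the same median), with Ighv2-3 farthest to the right and Ighv8-12 highest, and no trend is seen across the points.

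The 6 segments with the largest mean fold in the same direction came from 5 families. Ighv2-3 was measured at 12435 in control females, 36947 in BBP females, 11411 in control males and 14719 in BBP males, a log2 ratio of 1.57 and 0.37 in the pairs (limma log2 fold change 0.97 ± 0.31 SE, adjusted p = 0.141). Ighv2-2 was at 8036, 19487, 8055 and 9091 in the same pools, with 1.28 and 0.17. In both segments the BBP female pool stood far above the other 3 pools, which lay close together.

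Ighv12-3, known from B-1 cells that bind phosphatidylcholine, was at 2135 in control females, 3387 in BBP females, 1228 in control males and 2305 in BBP males. Its log2 ratios were 0.67 and 0.91 (limma log2 fold change 0.79 ± 0.14 SE, adjusted p = 0.0656), and both BBP pools lay above both control pools. The groups overlapped when the arrays were scaled to the same median. With pseudogenes left out of the fit limma called Ighv12-3, at an adjusted p of 0.0473, and in the other fits of all 4 arrays that were tried the adjusted p reached 0.341. The Ighv11 segments, known from the same kind of B-1 cell, were near the floor of 100. Ighv11-2 was at 123.6, 181.6, 87.1 and 133.9 in these pools, and Ighv11-1 at 154.0, 253.8, 107.1 and 133.7. In Ighv11-2 the BBP pools lay above the control pools, though not with arrays scaled to the same median, and in Ighv11-1 the groups overlapped.

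Ighv10-3 had log2 ratios of 0.55 and 0.98 (limma log2 fold change 0.76 ± 0.17 SE, adjusted p = 0.0796), and Ighv10-1 had 0.60 and 0.66 (0.63 ± 0.13 SE, adjusted p = 0.0723). Ighv8-5 was at 24089 in control females, 44818 in BBP females, 18862 in control males and 27394 in BBP males, with log2 ratios of 0.90 and 0.54. Ighv1-82, the highest fold among the Ighv1 segments with the same sign, was at 19120, 32095, 17542 and 26344 in these pools, with 0.75 and 0.59. On the deposited scale the BBP pools lay above both control pools in Ighv8-5 and Ighv1-82. With arrays scaled to the same median this held in Ighv1-82 only. The adjusted p values by limma were 0.0857 for Ighv8-5 and 0.0816 for Ighv1-82.

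At the other end, 2 segments were lower in both pairs. Ighv1-11 was at 1912 in control females, 1763 in BBP females, 1779 in control males and 1419 in BBP males, or -0.12 and -0.33 on the log2 scale. Ighv5-6 was at 520.4, 473.1, 429.1 and 354.5 in these pools, or -0.14 and -0.28. The exposure groups overlapped in Ighv5-6, whereas in Ighv1-11 both BBP pools lay just below both control pools. The smallest same-sign folds above 0 were those of Ighv1-31 with 0.02 and 0.03, Ighv1-73 with 0.04 and 0.04, Ighv1-42 with 0.01 and 0.08, and Ighv1-64 with 0.07 and 0.11, and with arrays scaled to the same median all 4 had a limma log2 fold change below 0.

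In 34 segments the pairs went opposite ways. Ighv8-13 was at 20116 in control females, 12993 in BBP females, 7669 in control males and 13619 in BBP males, a log2 ratio of -0.63 and 0.83. Ighv8-12 was at 47389, 46323, 20376 and 42048 in these pools, with -0.03 and 1.05. Ighv1-76 had -0.63 and 0.75, and Ighv5-9-1 had -0.57 and 0.44. For these 4 segments the control female pool was the highest and the control male pool the lowest, with both BBP pools between them.

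Ighv6-7 had the reverse pattern in size, at 19488 in control females, 39599 in BBP females, 24049 in control males and 26566 in BBP males, with log2 ratios of 1.02 and 0.14. Ighv1-80 was at 302.2, 437.0, 398.1 and 316.3 in these pools, with 0.53 and -0.33. Ighv5-2, the measured segment nearest to the D segments and well known for its early use in B cell development, was at 277.0, 354.3, 343.8 and 293.9, and the groups overlapped. Ighv5-2 was picked out after its values were seen. With 1 pool per sex and exposure, the difference between the pairs could not be tested.

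The male pool was lower than the female pool in most segments. The median log2 ratio of male to female was -0.56 between the control pools and -0.41 between the BBP pools, beside 0.02 and -0.05 over all genes. Of the 94 segments, 84 were lower in the male pool in both exposure groups (33.4% of all genes) and 0 were higher in both. With arrays scaled to the same median, 86 were lower in both (4998 of the 10614 genes), and at a common Ighv median 27 were (105 of the genes). The median difference between sexes was thus larger in size than that between exposed and control pools. Sex cannot be told apart from the number of animals pooled or the litters. These ratios share their pools with the exposure ratios above.

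Along the locus, the 31 measured segments nearest to the D segments hold no Ighv1 segment, the middle 31 hold 23 and the distal 32 hold 27. The median log2 ratio in the female pair was 0.36 in the first of these parts, 0.11 in the middle and 0.03 in the distal part, and in the male pair 0.37, 0.40 and 0.27. Spearman's rho of the log2 ratio with segment order over the 94 segments was -0.26 for the female pair and -0.03 for the male pair. Within the 50 Ighv1 segments it was 0.07 and -0.09. The lower ratios away from the D segments were thus seen in the female pair over all families, and not within the largest one.

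Neighbours of different families often had unlike ratios in the same pair. In the part nearest to the D segments, Ighv2-2, Ighv2-3, Ighv2-4 and Ighv2-5 had female log2 ratios of 1.28, 1.57, 1.06 and 0.77, while Ighv5-4, Ighv5-6 and Ighv5-9 between them had 0.60, -0.14 and -0.03. In the male pair the same Ighv2 segments had 0.17, 0.37, 0.26 and 0.44 and the Ighv5 segments -0.23, -0.28 and 0.89, so Ighv5-9 was above all of them there. Around the Ighv10 segments, Ighv1-4, Ighv1-5 and Ighv1-7 had female log2 ratios of -0.08, -0.01 and -0.08 and male ones of 0.55, 0.23 and 0.50. These stretches were chosen after the values were seen.

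The 18 segments under the floor had signals up to 110.4 and include all listed members of Ighv13, Ighv15 and Ighv16. Ighv13-1 was at 10.9 to 14.6, close to the background features. Just outside the rule lay Ighv1-47, at 110.4 in control females, 97.7 in BBP females, 92.5 in control males and 98.3 in BBP males. Just inside it lay Ighv3-5, at 109.8, 146.8, 74.2 and 68.6 in these pools. Ighv1-72, known from the antibody response of C57BL/6 mice to the hapten NP, was at 106.8, 110.3, 90.3 and 105.8.

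The light chain and T cell receptor V segments gave a comparison within the same arrays. The 75 kappa chain segments (Igkv) that passed the filter had a median log2 ratio of 0.32 for females and -0.15 for males, and 15 were higher in both pairs, a share close to the 19.9% of all genes. The heavy chain segments were higher in the male pair by the median where the kappa segments were lower. The 45 T cell receptor alpha segments (Trav) had medians of 0.50 and 0.36, with 40, or 88.9%, higher in both pairs, and the 15 beta segments (Trbv) had 0.43 and -0.08. Between the control pools the median male to female ratio was -0.56 for Ighv and 0.17 for Igkv. No test of these differences was made.

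Marker genes of the cells that carry these segments had another direction. Of 17 B cell markers 15 were measured, with median log2 ratios of -0.20 and -0.26, 2 higher and 11 lower in both pairs, where 19.9% and 51.6% of all genes were, and 0 called by limma. Their summed signal was 321662 to 326775 in the control pools and 253900 to 260278 in the BBP pools. Cd79b, a signalling chain of the B cell receptor, had -0.34 and -0.37, and Ms4a1, which encodes CD20, had -0.44 and -0.45. The 2 higher in both pairs were Blk and Ebf1, the latter with 0.08 and 0.12, and Pax5 had 0.23 and -0.06. The summed signal of the measured B cell markers was thus lower with BBP in each pair while that of the heavy chain V segments was higher, and no marker passed the test. Over all genes the medians were -0.10 and -0.15, and the summed signal was lower with BBP in each pair too. It was 1.41e+08 in control females, 1.19e+08 in BBP females, 1.58e+08 in control males and 1.43e+08 in BBP males.

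Of 10 plasma cell markers 5 were measured, with medians of 0.08 and -0.19, and their summed signal was 19477 in control females and 24673 in control males against 20963 and 19178 in the BBP pools. Sdc1, the surface marker of plasma cells, was at 36.2 to 43.1, and Prdm1, their master regulator, at 61.0 to 81.6, both below the floor. Jchain, which links IgM and IgA multimers, had log2 ratios of 0.34 and -0.19. Of the 5 measured markers, 2, Irf4 and Slamf7, were higher in both pairs (19.9% of all genes) and 2 were lower (51.6%). The lower ones were Mzb1, with -0.42 and -1.48, and Xbp1, with -0.25 and -0.51. In the male pair Mzb1 went from 6610 to 2368. The main transcript cluster of Ighm was at 666093 in every pool and had no fold. Ighg1 was at 178.7 in control females, 201.3 in BBP females, 107.3 in control males and 149.8 in BBP males, so it was higher with BBP in each pair while the groups overlapped. Ighg2b, the other constant region gene with a fold, was at 153.3, 151.7, 159.5 and 156.4 in these pools. Its log2 ratios were -0.015 and -0.028.

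Markers of other cells differed as well. Of 12 T cell markers 10 were measured, with medians of 0.61 and 0.14 and 7 higher in both pairs, and their summed signal was 55155 in control females and 36319 in control males against 89718 and 49970 in the BBP pools. Of 14 erythroid markers 10 were measured, with medians of -0.57 and -1.29 and 8 lower in both pairs, 3 of which limma called lower, and summed signals of 184200 in control females and 298101 in control males against 118156 and 126292 in the BBP pools. Of the 10 myeloid markers all were measured, with medians of -0.36 and -0.08 and 6 lower in both pairs. Of all genes, 19.9% were higher and 51.6% lower in both pairs. Called by limma were 1.52% of all genes as higher and 1.29% as lower, and 0 of the T cell and 0 of the myeloid markers. The part of this cell makeup in the Ighv values was not tested.

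Genes that build and open the locus were measured on the same arrays. Of 15 genes for V(D)J recombination and end joining 6 were measured, with medians of -0.13 and -0.28, 0 higher and 4 lower in both pairs (19.9% and 51.6% of all genes) and 0 called by limma. Rag2, a subunit of the recombinase, was at 31.4 to 38.7, below the floor. Dntt, which adds nucleotides at the joints, was at 207.7 in control females, 133.7 in BBP females, 237.8 in control males and 178.3 in BBP males. Both BBP pools lay below both control pools in Dntt.

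All 14 genes for folding and accessibility of the heavy chain locus were measured, with medians of 0.01 and -0.19, 4 higher and 6 lower in both pairs, where 19.9% and 51.6% of all genes were. The only one called by limma was Il7r, the receptor chain for interleukin 7, which acts on B cell precursors and is also expressed by T cells. Il7r was at 7401 in control females, 22170 in BBP females, 6748 in control males and 13808 in BBP males, and rose with BBP (limma log2 fold change 1.31 ± 0.19 SE, adjusted p = 0.049). In the other fits of all 4 arrays its adjusted p ranged from 0.000303 to 0.216, with 5 of 11 under 0.05, and in the 4 fits that left out a pool from 0.317 to 0.582. Of the octamer factors, which bind V promoters, Pou2f1 had log2 ratios of 0.22 and 0.16 and the coactivator Pou2af1 -0.05 and -0.11.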

How the data were processed

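The authors extracted fluorescence with MAS 5.0 and brought the arrays to a shared scale by an unknown target; linear signal intensities were deposited. Symbols came from the platform annotation, and gene types and segment order from RefSeq (GRCm38.p6), in which all 113 segments were found; 8 clusters that name an Ighv segment among several symbols were left out. The floor was 100 on 2 or more arrays, and no pseudocount was added. Log2 ratios were taken within each sex, and limma 3.58.1 (R 4.3.3; exposure and sex as terms, trended variances) was fitted to all 10614 genes, with Benjamini-Hochberg adjustment at 0.05 and a check on simulated data. The other steps used Python 3.11.15 (pandas 2.3.3, numpy 2.4.6) and matplotlib 3.10.9. A total of 27 segments were named by rule: the 12 of highest mean, the 6 with the largest and the 6 with the smallest mean same-sign ratio, the 4 with the largest difference between pairs each way, and single members of a family; others are marked or illustrate a family. Members and lists were chosen with earlier results of these data known. The number of arrays limits the precision, and p values compare pools, not animals.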

Additional observations from a re-analysis of the deposited data

Results flagged for a closer look

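The segments and groups below had log2 ratios of BBP to control on opposite sides of 0 in the female and the male pair. With 1 pool per sex and exposure the difference was not tested. Ighv8-13 had -0.63 in the female and 0.83 in the male pair, Ighv1-76 -0.63 and 0.75, Ighv5-9-1 -0.57 and 0.44, and Ighv8-12 -0.033 and 1.05. Ighv1-80 had 0.53 and -0.33, the reverse direction. Among the segments of highest mean signal, Ighv1-5 had -0.014 and 0.23, Ighv1-56 -0.095 and 0.15, and Ighv1-62-1 -0.051 and 0.25. Of the family medians, Ighv8 had -0.0031 and 0.64, Ighv3 -0.016 and 0.38, and Ighv14 -0.043 and 0.26. The median of the kappa chain segments was 0.32 in the female and -0.15 in the male pair.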

How the results depend on the processing

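The median log2 ratio of the segments kept its sign in both pairs with other signal filters, 50 added to each signal, quantile normalization, identical signals counted once, no pseudogenes and every cluster, and with Ighv1-2 counted at a log2 ratio of 0, an alternative chosen after seeing the data. It turned to -0.0052 in the female pair with arrays scaled to a common median, and to -0.032 and -0.024 with arrays scaled to a common Ighv median, which removes the shared difference by construction. limma then called 2 segments higher (Ighv10-3 and Ighv2-3), and 1 (Ighv12-3) without pseudogenes, against 0 otherwise and 0 to 0 without each pool. Over all genes it called 161 higher and 137 lower. It called 172 and 501 with arrays at the same median, 212 and 2369 at the same Ighv median, 88 and 35 with 50 added, 207 and 223 without pseudogenes, 152 and 98 without a trend, and 0 and 0 with no filter, a floor of 200, quantile normalization, identical signals counted once, no sex term or any pool left out. The cause of these differences was not tested.

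Of single segments, limma's log2 fold change fell below 0 with arrays at the same median in Ighv1-5 (-0.0072), Ighv1-31 (-0.089), Ighv1-42 (-0.067), Ighv1-56 (-0.084), Ighv1-62-1 (-0.017), Ighv1-64 (-0.024), Ighv1-73 (-0.074), Ighv1-76 (-0.054), Ighv1-80 (-0.014) and Ighv8-13 (-0.015, and -0.035 after quantile normalization). At the same Ighv median it did so in Ighv1-5 (-0.14), Ighv1-14 (-0.11), Ighv1-31 (-0.22), Ighv1-34 (-0.12), Ighv1-42 (-0.20), Ighv1-56 (-0.21), Ighv1-62-1 (-0.15), Ighv1-64 (-0.15), Ighv1-73 (-0.20), Ighv1-76 (-0.18), Ighv1-80 (-0.14) and Ighv8-13 (-0.15).

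Leaving out each pool, and with it the sex term, gave log2 fold changes on both sides of 0 in Ighv1-5 (-0.27 to 0.49), Ighv1-14 (-0.11 to 0.38), Ighv1-31 (-0.11 to 0.16), Ighv1-34 (-0.10 to 0.36), Ighv1-42 (-0.092 to 0.19), Ighv1-56 (-0.32 to 0.38), Ighv1-62-1 (-0.21 to 0.40), Ighv1-73 (-0.041 to 0.12), Ighv1-76 (-0.57 to 0.69), Ighv1-80 (-0.13 to 0.33), Ighv5-6 (-0.41 to 0.0017), Ighv5-9-1 (-0.36 to 0.23), Ighv8-12 (-0.10 to 1.12) and Ighv8-13 (-0.60 to 0.79). Without the BBP female pool, values between these limits but opposite in sign to the full fit were -0.15 in Ighv1-5, -0.025 in Ighv1-14, -0.10 in Ighv1-31, -0.057 in Ighv1-42, -0.19 in Ighv1-56, -0.060 in Ighv1-62-1, -0.037 in Ighv1-73 and 0.15 in Ighv5-9-1, without the control male pool -0.081 in Ighv1-34, and without the control female pool -0.099 in Ighv1-80. The lone pool of an exposure was then assumed to vary like the others. The sex term pairs the pools in the main analysis.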

Other observations

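Clusters that the annotation assigns to several symbols were left out of the counts. The cluster shared by Ighm and Ighv2-7 had a signal of 4250 in control females, 11558 in BBP females, 3206 in control males and 6090 in BBP males, a log2 ratio of 1.44 in the female and 0.93 in the male pair. The cluster shared by Ighm and Ighv2-6 was at 777.3, 1471, 701.2 and 1011 in these pools, with 0.92 and 0.53. Both BBP pools lay above both control pools in each of them. They name Ighv2 segments, and the probes cannot be assigned to V segment or constant region here. The cluster of Ighv8-8 and Ighv8-11 had log2 ratios of 0.34 and 0.77, that of Ighv9-1 and Ighv9-2 0.15 and 0.40, and that of Ighv5-12 and Ighv5-15 0.45 and 0.21. Lower with BBP in both pairs was the cluster that names Ighv14-2 together with J segments, Ighd, Igha and Ighg2c. It was at 2996 in control females, 2769 in BBP females, 2666 in control males and 2621 in BBP males, with -0.11 and -0.025. The 2 clusters that hold Ighv7 segments, of which the single-symbol list has none, were under the floor of 100 in every pool.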
